A study of Mus musculus with 3 samples.

Results

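The 7 mitochondrially encoded subunits of complex I (mt-Nd1, mt-Nd2, mt-Nd3, mt-Nd4, mt-Nd4l, mt-Nd5 and mt-Nd6) were followed in mouse embryonic stem cells whose protein synthesis had been blocked with cycloheximide. The genes were chosen by symbol, as 7 of the 32285 genes in each count table and 7 of the 13 mitochondrially encoded protein genes listed there, by a rule that uses no measured value. The cells were E14, an embryonic stem cell line from the 129/Ola mouse strain, grown with serum and leukemia inhibitory factor. Cycloheximide, which blocks elongation by cytosolic ribosomes, was given at 250 µg/mL in 0.007% ethanol from 24 h after seeding, for 3 h in the 3 h library and 6 h in the 6 h library. The control library came from cells given 0.007% ethanol alone for 6 h, so the 3 h library has no vehicle control of its own length. All cells were detached, frozen and thawed before single-cell RNA sequencing from the 3′ end of polyadenylated RNA. Each condition was 1 library of 1 cell line, and no difference below has a replicate check or a p-value.

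Complex I, or NADH:ubiquinone oxidoreductase, takes electrons from NADH and pumps protons across the inner mitochondrial membrane. Its matrix arm is built from nuclear-encoded subunits, while the core of its membrane arm is made of the proteins of these mitochondrial genes. Mitochondrial DNA is transcribed from both strands as long precursors by a dedicated polymerase, and the transfer RNAs between the genes are cut out to release the messenger RNAs. Most of the messages then receive a poly(A) tail, which in several genes completes the stop codon. The messages are translated on mitochondrial ribosomes, which cycloheximide does not inhibit. Of the 7 genes, mt-Nd6 alone is coded by the light strand. In human cells its message has been reported to lack a poly(A) tail.

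Barcodes were kept as cells when they held at least 15000 unique molecular identifiers (UMIs, 1 per captured molecule) and 1 to 20% of them from mitochondrial genes. This kept 2187 control, 1739 3 h and 2554 6 h barcodes, with medians of 43160, 51726 and 46200 UMIs and of 6038, 6776 and 6631 genes. The kept barcodes held 111447486, 106842407 and 140321458 UMIs. The lower mitochondrial limit removed 62 control barcodes, 1 after 3 h and 8 after 6 h, and the upper limit removed 0. These limits count the UMIs of the 7 genes too, so the kept barcodes were partly chosen on them. Without the limits the 7 genes summed to 9544 CPM in the control, in place of 10069 CPM. Between pairs of libraries, 3, 3 and 1 kept barcodes were shared. The cells carried the markers of embryonic stem cells, with 8 of 8 detected and summed levels of 6656 to 7664 CPM (UMIs per 1000000 UMIs of the kept barcodes). Dppa5a made up most of these sums, at 4771 CPM in the control, 5327 CPM after 3 h and 5475 CPM after 6 h. After 6 h Pou5f1, Sox2, Zfp42, Esrrb, Klf4 and Tdgf1 were below the control, and Nanog and Dppa5a were above it. Lists for fibroblast feeders (2.23 to 3.09 CPM, with Col3a1 at 0) and primitive endoderm (6.21 to 10.6) had sums far below 6656 CPM. So did those for mesoderm (3.31 to 4.26) and neuroectoderm (9.39 to 14.4). Free RNA in the droplets was read from barcodes of 10 to 100 UMIs, where 3.03, 2.61 and 1.86% of UMIs were mitochondrial, against 4.57, 3.51 and 2.94% in kept barcodes.

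All 7 gene identifiers matched GENCODE M21, the annotation of the GRCm38 mouse genome. The 6 heavy-strand genes lie on the plus strand of chrM in the order mt-Nd1 (2751-3707), mt-Nd2 (3914-4951), mt-Nd3 (9459-9806), mt-Nd4l (9877-10173), mt-Nd4 (10167-11544) and mt-Nd5 (11742-13565). The minus-strand mt-Nd6 occupies 13552-14070. Each is annotated as a single exon that is coding throughout, with the stop codon included where the annotation gives one. A pair of overlaps bears on the counts and is shown here as plus-strand sequence, with the shared bases in capitals. The first is the 7 bases common to mt-Nd4l and mt-Nd4, which are carried on 1 messenger RNA in mammals, and the second is the 14 bases common to mt-Nd5 and mt-Nd6, which are read from opposite strands.
mt-Nd4l and mt-Nd4, chrM:10146-10194: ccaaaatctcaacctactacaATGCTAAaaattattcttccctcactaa
mt-Nd5 and mt-Nd6, chrM:13531-13586: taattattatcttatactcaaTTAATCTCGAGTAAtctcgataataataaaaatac
How reads in these overlaps were counted is not given in the sources used here, so the levels of mt-Nd4l, mt-Nd4, mt-Nd5 and mt-Nd6 are uncertain in that respect. For mt-Nd4l in particular, a 3′ read primed at the end of the shared messenger RNA falls in mt-Nd4, which lies downstream of it.

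A poly(T) primer can also bind A-rich stretches inside a message. The longest run of A in the sense strand of each gene, in capitals with up to 25 bases on either side, is shown for the genes with the longest runs and for the pair with the shortest.
mt-Nd2, chrM:4027-4084, plus: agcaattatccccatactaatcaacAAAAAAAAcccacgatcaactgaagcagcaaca
mt-Nd5, chrM:12611-12667, plus: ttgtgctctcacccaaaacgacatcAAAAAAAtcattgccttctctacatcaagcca
mt-Nd4, chrM:10202-10258, plus: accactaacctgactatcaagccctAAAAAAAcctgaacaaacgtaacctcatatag
mt-Nd4l, chrM:10088-10141, plus: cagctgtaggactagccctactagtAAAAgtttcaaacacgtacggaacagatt
mt-Nd6, chrM:13981-14033, minus: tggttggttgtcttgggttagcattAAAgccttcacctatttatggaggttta
The run was 8 bases in mt-Nd2, 7 in mt-Nd4 and mt-Nd5, 6 in mt-Nd1, 5 in mt-Nd3, 4 in mt-Nd4l and 3 in mt-Nd6. Searched on the sense strand alone, AAAAA was present in 10 of the 13 mitochondrial protein genes and missing from mt-Nd4l, mt-Nd6 and mt-Co2. The sense strand of mt-Nd6 was 22.2% A and 28.1% G. Among the other 12 mitochondrial genes the lowest share of A was 29.5% and the highest share of G was 16.1%. Whether priming within the messages contributed to these counts was not tested.

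The complex I messages of the mitochondrial genome were lower in both cycloheximide libraries than in the control, and lowest after 6 h. Their summed level was 10069 CPM in the control, 6190 CPM after 3 h and 4669 CPM after 6 h. This was 1.63-fold lower than the control after 3 h and 2.16-fold lower after 6 h. In UMIs per kept barcode, the mean of the 7 genes together was 513 in the control, 380 after 3 h and 256 after 6 h. The log2 ratio of summed CPM was -0.70 (95% interval -0.71 to -0.70) after 3 h against the control, -1.11 (-1.11 to -1.10) after 6 h against the control and -0.41 (-0.41 to -0.40) after 6 h against 3 h. Intervals here and below are exact and cover counting error only. The ratios after 3 h and 6 h share the control library, so the order of the times within a gene rests on those 3 libraries.

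**Figure D1:**
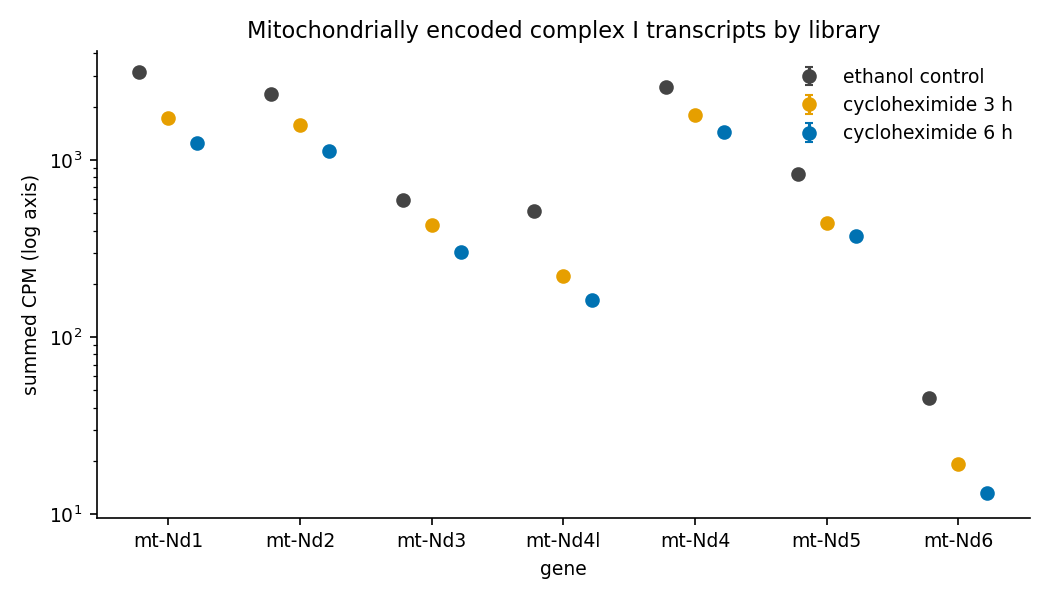
Level of each mitochondrially encoded complex I gene in CPM (log axis) in the control, 3 h and 6 h libraries, with 1 library a group and bars for the exact 95% Poisson interval, which is smaller than the marker for most points. Each gene is lower after 3 h than in the control and lower again after 6 h, from 3133 to 1253 CPM for mt-Nd1 and from 45.1 to 13.2 CPM for mt-Nd6.

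The heavy-strand genes at the start of the array, mt-Nd1 and mt-Nd2, code for membrane-arm subunits, ND1 at the junction with the matrix arm and ND2 in the proton-pumping part. mt-Nd1 was at 3133 CPM in the control, 1723 CPM after 3 h and 1253 CPM after 6 h. mt-Nd2 was at 2349 CPM in the control, 1567 CPM after 3 h and 1130 CPM after 6 h. Both were highest in the control and lowest after 6 h, and no counting intervals overlapped. mt-Nd1 was the more reduced of the pair, with a log2 ratio of -0.86 after 3 h and -1.32 after 6 h against -0.58 and -1.06 for mt-Nd2.

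Of the next genes along the heavy strand, mt-Nd3 codes for a small subunit that lies near the ubiquinone site. mt-Nd3 was at 595 CPM in the control, 427 CPM after 3 h and 303 CPM after 6 h. Its log2 ratio of -0.48 after 3 h was the least negative of the 7 genes at that time, and that after 6 h was -0.97. mt-Nd4, which codes for a proton-pumping subunit related to bacterial antiporters, was at 2600 CPM in the control, 1794 CPM after 3 h and 1437 CPM after 6 h. At 6 h its log2 ratio of -0.86 was the least negative of the 7. mt-Nd4l, whose product is a small membrane subunit, was at 513 CPM in the control, 220 CPM after 3 h and 161 CPM after 6 h. mt-Nd4l had the most negative log2 ratio of the heavy-strand complex I genes at both times, -1.22 after 3 h and -1.67 after 6 h.

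mt-Nd5, the most distal proton-pumping subunit, was at 833 CPM in the control, 439 CPM after 3 h and 372 CPM after 6 h. Most of its difference from the control was present after 3 h, where the log2 ratio was -0.92, against -1.16 after 6 h. Its log2 ratio of -0.24 after 6 h against 3 h was the least negative of the 7 genes. mt-Nd6, a membrane-arm subunit from the light strand, rested on 5027, 2059 and 1848 UMIs. mt-Nd6 was at 45.1 CPM (43.9 to 46.4) in the control, 19.3 CPM (18.4 to 20.1) after 3 h and 13.2 CPM (12.6 to 13.8) after 6 h. This gene had the lowest level of the 7 in every library. Its log2 ratio was -1.23 (-1.30 to -1.15) after 3 h and -1.78 (-1.85 to -1.70) after 6 h, or 3.42-fold lower than the control after 6 h. The 3 h intervals of mt-Nd6 and mt-Nd4l overlapped, and the 6 h intervals did not.

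Levels between genes were compared per length of the annotated gene, although a 3′ method need not scale with length. The order in the control was mt-Nd1 (3274 CPM per kb), mt-Nd2 (2263), mt-Nd4 (1887), mt-Nd4l (1729), mt-Nd3 (1709), mt-Nd5 (457) and mt-Nd6 (86.9). The intervals of the neighbours mt-Nd4l and mt-Nd3 overlapped in the control (1714 to 1743 and 1696 to 1722). The order in CPM per kb after 6 h was mt-Nd1 (1309), mt-Nd2 (1088), mt-Nd4 (1043), mt-Nd3 (870), mt-Nd4l (543), mt-Nd5 (204) and mt-Nd6 (25.4), and the 3 h library had this order too. Per kb, mt-Nd4l was thus below mt-Nd3 in both cycloheximide libraries, while in the control it was slightly above, with overlapping intervals. None of the neighbours' intervals overlapped after 6 h. In CPM, without division by length, mt-Nd3 was above mt-Nd4l in every library.

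Of the 7608 genes averaging 10 CPM or more, 2.13% were at least 1.5-fold lower after 3 h than in the control, and 4 of the 7 complex I genes were (mt-Nd1, mt-Nd4l, mt-Nd5 and mt-Nd6). mt-Nd2 lay just outside this fold, at 1.499-fold lower. At 6 h against the control 7.79% of all genes were at least 1.5-fold lower, and 7 of the 7 were. At 6 h against 3 h the share of all genes was 2.52%, and 0 of the 7 were, the nearest being mt-Nd6 at 1.46-fold lower. These counts depended on the scaling: with TMM (trimmed mean of M-values) factors 7 of the 7 were past 1.5-fold after 3 h (background 5.23%) and 2 after 6 h against 3 h (4.22%), and by UMIs per barcode 5 were past it after 6 h against 3 h (5.28%). All 7 had passed the 10 CPM minimum. The median log2 ratio of the 7 genes was -0.86 after 3 h and -1.16 after 6 h against the control, beside 0.11 and 0.17 for all genes. The central 90% of all genes spanned -0.42 to 0.95 after 3 h and -0.73 to 1.26 after 6 h, so the 7 genes lay below the 5th percentile at both times. In libraries scaled by TMM, the median of all genes was -0.063 after 3 h and -0.12 after 6 h, and the median of the 7 genes was -1.04 and -1.45. By UMIs per barcode, the all-gene medians were 0.38 and 0.27 and those of the 7 genes were -0.59 and -1.05. In free RNA the log2 ratio of the 7 genes summed was -0.54 after 3 h and -1.14 after 6 h.

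**Figure D2:**
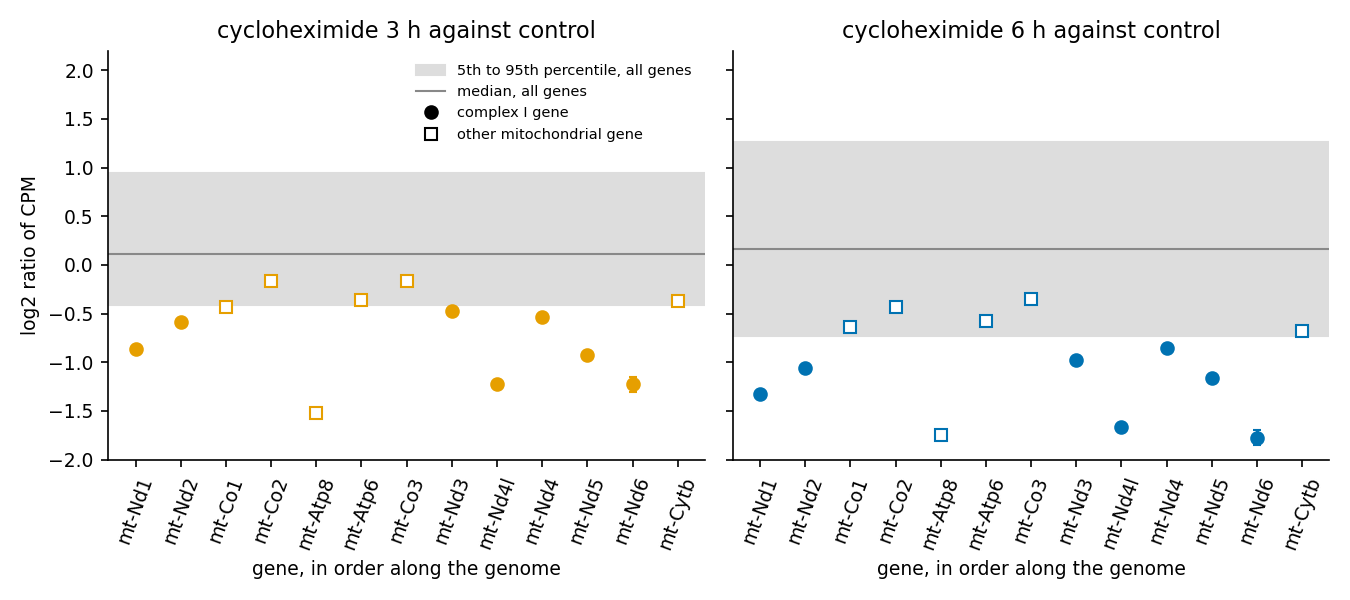
Log2 ratio of CPM against the control after 3 h and after 6 h for the 13 mitochondrially encoded protein genes, with exact 95% counting intervals and 1 library a group. All 13 lie below 0 at both times, and the most negative complex I gene is mt-Nd6 at -1.78 after 6 h.

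The 6 other mitochondrially encoded protein genes were lower too, though as a sum by less. Their summed level was 35628 CPM in the control, 28960 CPM after 3 h and 24738 CPM after 6 h, a log2 ratio of -0.30 after 3 h and -0.53 after 6 h. Against the control after 6 h, the log2 ratios were -0.64 for mt-Co1, -0.43 for mt-Co2 and -0.35 for mt-Co3, the core subunits of cytochrome c oxidase. The same ratios were -0.68 for mt-Cytb, the mitochondrial subunit of complex III, and -0.57 for mt-Atp6, a subunit of ATP synthase. mt-Atp8, another ATP synthase subunit, was the exception among them, at -1.52 after 3 h and -1.75 after 6 h, below all 7 complex I genes after 3 h and below 6 of the 7 after 6 h. At 3 h the log2 ratios of mt-Co2 and mt-Co3 were both -0.17 by CPM, and both were 0.10 by UMIs per barcode.

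A comparison within the mitochondrial messages does not depend on how the libraries were scaled. The 7 complex I genes made up 22.0% of the UMIs of the 13 mitochondrial genes in the control, 17.6% after 3 h and 15.9% after 6 h. The log2 ratio of this share was -0.32 after 3 h and -0.47 after 6 h against the control, and -0.15 after 6 h against 3 h. In free RNA the share was 19.5, 15.5 and 14.5%. Each of the 7 genes held a lower share of the 13 genes' UMIs in both cycloheximide libraries than in the control. Between 6 h and 3 h, 6 of the 7 were lower still, and mt-Nd5 differed by 0.018 on the log2 scale in the other direction.

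Within the 7 genes the make-up of the pool also differed. mt-Nd1 made up 31.1% of the complex I UMIs in the control, 27.8% after 3 h and 26.8% after 6 h. mt-Nd4 went the other way, at 25.8, 29.0 and 30.8%, and was the most abundant of the 7 in both cycloheximide libraries. mt-Nd2 held 23.3, 25.3 and 24.2%, and mt-Nd5 held 8.27, 7.09 and 7.97%. mt-Nd3 held 5.91, 6.90 and 6.49%, and mt-Nd4l held 5.10, 3.56 and 3.46%.

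The light-strand gene was compared with the heavy-strand genes as mt-Nd6 UMIs per 1000 UMIs of the 6 others. The value was 4.50 (4.38 to 4.63) in the control, 3.12 (2.99 to 3.26) after 3 h and 2.83 (2.70 to 2.96) after 6 h. The log2 ratio was -0.53 after 3 h, -0.67 after 6 h and -0.14 (-0.23 to -0.05) after 6 h against 3 h, so most of the difference was present after 3 h. The difference from the control was larger than counting error, and without a second library it cannot be set against the spread between cultures. In free RNA the mt-Nd6 value was higher and its intervals overlapped, at 9.39 (8.13 to 10.8) in the control, 8.18 (6.72 to 9.86) after 3 h and 8.23 (6.59 to 10.2) after 6 h. By level, free RNA held 55.0, 33.0 and 21.9 CPM of mt-Nd6 against 45.1, 19.3 and 13.2 CPM in kept barcodes. mt-Nd6 was 1.22, 1.71 and 1.67 times as abundant in free RNA as in kept barcodes, where the other 6 genes were at 0.50 to 0.88 times. The part of free RNA in the mt-Nd6 values was not tested beyond the subtraction of 10% of free RNA, which left 4.20, 2.77 and 2.5 per 1000.

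mt-Nd4l and mt-Nd4 share a message, yet their UMIs did not keep 1 ratio. There were 197 mt-Nd4l UMIs per 1000 mt-Nd4 UMIs in the control, 123 after 3 h and 112 after 6 h. The log2 ratio of this value was -0.69 after 3 h, -0.81 after 6 h and -0.13 after 6 h against 3 h. The other overlapping pair on a shared message, mt-Atp8 upstream of mt-Atp6, showed a like pattern. There were 40.5 mt-Atp8 UMIs per 1000 mt-Atp6 UMIs in the control, 18.2 after 3 h and 17.9 after 6 h, a log2 ratio of -1.16 after 3 h and -1.18 after 6 h. In both pairs the upstream gene had fewer UMIs and was the more reduced, and most of the difference was present after 3 h.

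**Figure D3:**
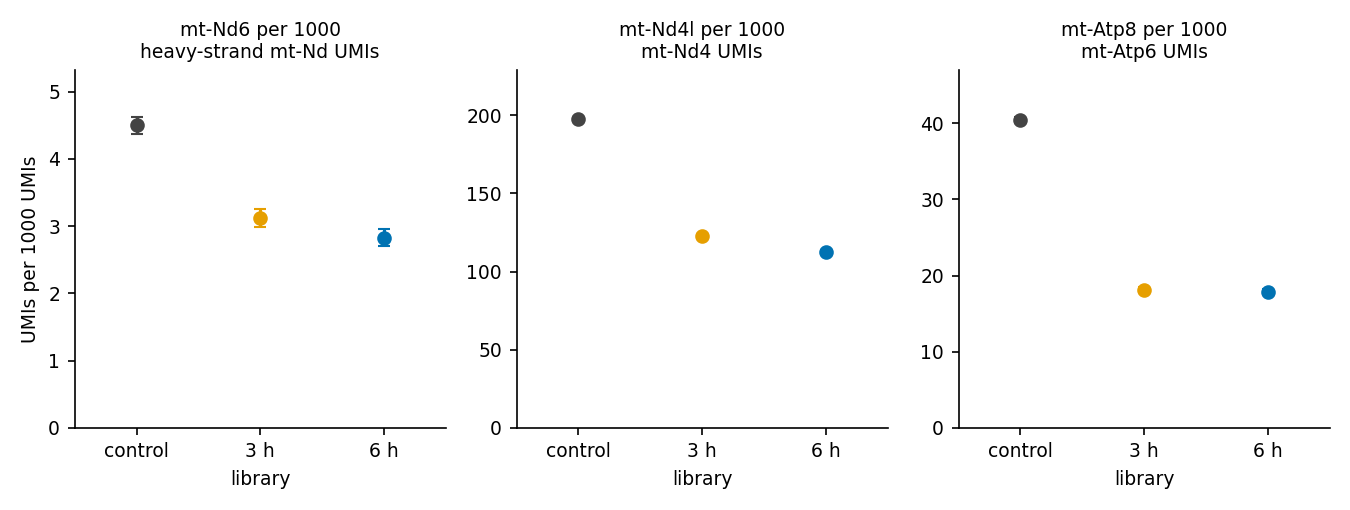
Ratios that do not depend on the library total, in the control, 3 h and 6 h libraries, with 1 library a group. The panels show mt-Nd6 per 1000 heavy-strand complex I UMIs, mt-Nd4l per 1000 mt-Nd4 UMIs and mt-Atp8 per 1000 mt-Atp6 UMIs. Bars are 95% intervals of counting error that take the denominator as fixed. The control is highest in each panel (4.50, 197 and 40.5), and the 6 h library is lowest (2.83, 112 and 17.9). In the mt-Atp8 panel the 3 h and 6 h intervals overlap.

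The difference was spread over the cells of each library. The 7 genes took a median of 0.996% of a kept barcode's UMIs in the control (quartiles 0.820 and 1.19), 0.611% after 3 h (0.495 and 0.743) and 0.456% after 6 h (0.371 and 0.559). After every barcode had been thinned to 15000 UMIs the medians were 1.00, 0.607 and 0.460%. Of the 3 h barcodes, 95.4% lay below the control median and 84.1% below the control's lower quartile. Of the 6 h barcodes, 98.6% lay below the control median and 84.0% below the 3 h median. The other 6 mitochondrial genes took medians of 3.57, 2.89 and 2.44%.

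**Figure D4:**
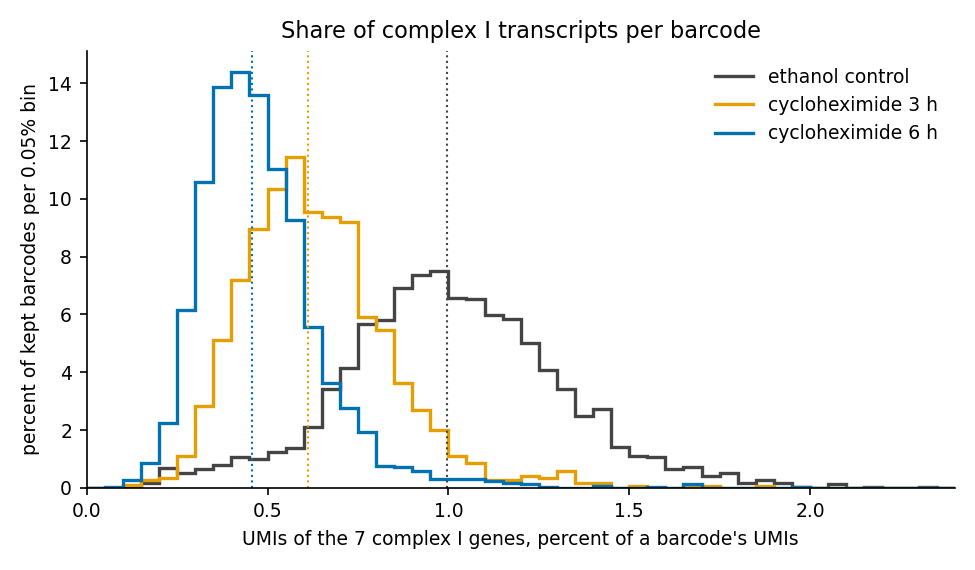
Distribution over kept barcodes of the percentage of UMIs from the 7 mitochondrially encoded complex I genes, in bins of 0.05%, for the control (2187 barcodes), 3 h (1739) and 6 h (2554) libraries, with 3 control barcodes beyond the axis. The distributions overlap, and their medians lie at 0.996, 0.611 and 0.456%.

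The order of the libraries was the same in each of 4 equal groups of kept barcodes ranked by total UMIs. The median share of the 7 genes from the lowest to the highest group was 1.00, 0.988, 0.973 and 1.02% in the control. The 3 h groups were at 0.672, 0.617, 0.587 and 0.590%, and the 6 h groups at 0.495, 0.452, 0.436 and 0.451%. mt-Nd6 per 1000 heavy-strand complex I UMIs was 5.02, 4.93, 5.04 and 3.83 in the control groups, 3.28, 3.85, 3.42 and 2.61 after 3 h, and 3.09, 3.51, 3.11 and 2.29 after 6 h. The group with the most UMIs had the lowest mt-Nd6 value in each library. Doublets were not removed and would fall mainly in that group.

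At 15000 UMIs a barcode, mt-Nd1 was detected in 100% of kept barcodes of each library. mt-Nd3 was detected in 99.7% of control, 99.1% of 3 h and 97.1% of 6 h barcodes, and mt-Nd5 in 99.8, 99 and 98.6%. mt-Nd4l was detected in 99.5, 94.4 and 89.8% of thinned barcodes, and in 100, 99.8 and 99.2% before thinning. mt-Nd6 was detected in 44.5% (42.4 to 46.6) of control barcodes, 25.5% (23.4 to 27.6) after 3 h and 17.5% (16.1 to 19.0) after 6 h after thinning. The unthinned mt-Nd6 shares were 78.0, 56.2 and 45.3%. The thinned mean of mt-Nd6 was 0.701, 0.327 and 0.200 UMIs a barcode, under 1 UMI in each library, so no change in the share of expressing cells was read from these values.

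Cells of 1 library varied in these genes by more than counting error. The excess squared coefficient of variation (variance minus mean, over the squared mean, of thinned counts) of the 7 genes summed was 0.0909 in the control, 0.101 after 3 h and 0.121 after 6 h. For the other 6 mitochondrial genes it was 0.0720, 0.0790 and 0.0854. Among the heavy-strand genes mt-Nd4 varied least (0.0931, 0.0946 and 0.113) and mt-Nd5 most (0.163, 0.212 and 0.313). mt-Nd1 was at 0.102, 0.122 and 0.142, and mt-Nd2 at 0.117, 0.143 and 0.167. mt-Nd6 counts were too sparse for this measure. Without the mitochondrial limits on barcodes the control and 3 h values changed order, at 0.119 in the control, 0.101 after 3 h and 0.124 after 6 h. Thinning to a greater depth left out shallower cells. The value for the 7 genes summed was then 0.0825 in the control, 0.0891 after 3 h and 0.0978 after 6 h.

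Across thinned cells the heavy-strand genes varied together. Over their 15 pairs Spearman's rho was 0.22 to 0.70 in the control (2187 cells), 0.12 to 0.60 after 3 h (1739 cells) and 0.18 to 0.54 after 6 h (2554 cells), as a description of cells that share a library and a fixed total. mt-Nd1 and mt-Nd2, which are neighbours on the genome, gave the highest rho in each library, at 0.70, 0.60 and 0.54. mt-Nd4 and mt-Nd5, also neighbours, gave 0.54, 0.44 and 0.41. Pairs that are not neighbours were above these values, at 0.66, 0.54 and 0.52 for mt-Nd1 with mt-Nd4 and 0.64, 0.55 and 0.49 for mt-Nd2 with mt-Nd4. mt-Nd4 and mt-Nd4l gave 0.33, 0.28 and 0.30, where mt-Nd4l had a thinned mean of only 8.18, 3.58 and 2.64 UMIs a barcode. The 6 pairs with mt-Nd6 were at 0.04 to 0.17 over the 3 libraries, at counts too low for a finding. The summed complex I genes and the summed other 6 mitochondrial genes had a rho of 0.76, 0.72 and 0.68.

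The nuclear-encoded partners of these proteins stood closer to the control than the mitochondrial genes did. By CPM, 0 of the 37 nuclear complex I subunits measured were past 1.5-fold in either direction after 3 h or 6 h against the control. This count depends on the scaling and was made with CPM alone. The log2 ratios of these subunits after 6 h ran from -0.40 to 0.45. Of all 7608 genes, 2.13% were at least 1.5-fold lower and 13.9% at least 1.5-fold higher after 3 h, and 7.79% and 22.1% after 6 h. The median log2 ratio of the 37 nuclear subunits was 0.0023 after 3 h and 0.11 after 6 h, and under TMM scaling it was -0.17 and -0.18. The core subunits of the matrix arm (7 genes) had medians of -0.0034 and 0.037. Ndufv1, which binds the FMN cofactor, was at 0.21 and 0.45, and Ndufs3, a subunit of the matrix arm, was at 0.21 and 0.43. Ndufs8, an iron-sulfur subunit, was at -0.04 and -0.03, and Ndufv2, another iron-sulfur subunit, was at -0.10 and 0.00. The 30 accessory subunits had medians of 0.0050 and 0.12, with Ndufb11 (0.16 and 0.41) and Ndufa9 (0.14 and 0.37) the highest after 6 h. Ndufa11 (-0.24 and -0.40) and Ndufa3 (-0.24 and -0.25) were the lowest. No test of the difference between the lists could be made with 1 library a group, and the lowest nuclear subunit after 6 h (-0.40) lay above the least reduced mitochondrial one (-0.86).

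The assembly factors of complex I, proteins that help build it and are absent from the finished enzyme, had a median log2 ratio of 0.18 after 3 h and 0.37 after 6 h over the 14 of 15 above 10 CPM. At 6 h, 5 of the 14 were at least 1.5-fold higher than the control (22.1% of all genes were) and 1 was at least 1.5-fold lower (7.79% of all genes). Tmem126b, which acts in assembly of the membrane arm, was at 13 CPM in the control, 38.5 CPM after 3 h and 53.9 CPM after 6 h. Its log2 ratio was 1.57 after 3 h and 2.05 after 6 h, and that of Foxred1 was 0.82 and 1.28. Ndufaf1, an early assembly factor, was lowest, at -0.23 and -0.60, and Ndufaf2 was next, at -0.03 and -0.10.

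Genes of mitochondrial transcription and DNA maintenance differed in both directions. Of 15 listed, 11 passed 10 CPM, with a median log2 ratio of 0.26 after 3 h and 0.25 after 6 h, 2 at least 1.5-fold lower and 2 at least 1.5-fold higher after 6 h, beside 7.79% and 22.1% of all genes. Tfb2m, the factor with which the mitochondrial RNA polymerase starts transcription, was at 18.4 CPM in the control, 10.5 CPM after 3 h and 8.84 CPM after 6 h, a log2 ratio of -0.81 and -1.06. Twnk, the mitochondrial DNA helicase, was at 17.7, 13.3 and 8.22 CPM, with log2 ratios of -0.41 and -1.11. Polrmt, the mitochondrial RNA polymerase, had log2 ratios of 0.26 and 0.25, and Tfam, which packages mitochondrial DNA and activates its transcription, had 0.03 and -0.21. The higher pair were Polg2, the accessory subunit of the mitochondrial DNA polymerase (0.74 and 1.68), and Mgme1, a mitochondrial exonuclease (1.14 and 1.32).

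Among genes of mitochondrial RNA processing and stability, 19 of 20 passed 10 CPM, with a median log2 ratio of 0.19 after 3 h and 0.26 after 6 h. At 6 h, 4 of the 19 were at least 1.5-fold higher and 1 was at least 1.5-fold lower, which is near the shares of all genes (22.1% and 7.79%). Rexo2, which degrades very short RNAs, was lowest, at 207 CPM in the control, 144 CPM after 3 h and 128 CPM after 6 h (log2 ratios -0.53 and -0.69). Lrpprc, which stabilizes mitochondrial messages, was next, at -0.13 and -0.30, and its partner Slirp was at -0.11 and 0.17. Trmt10c, a subunit of the mitochondrial RNase P that cuts transfer RNAs from the precursors, was highest, at 44.7, 105 and 106 CPM (1.23 and 1.24). Mtpap, the mitochondrial poly(A) polymerase, was at 0.67 and 0.99. Pde12, also at least 1.5-fold higher after 6 h, was at 0.63 and 0.71. The degradosome genes Supv3l1 (0.58 and 0.78) and Pnpt1 (0.27 and 0.45) were also above the control. Grsf1, which binds G-rich light-strand RNA, was at -0.08 and 0.03, and Fastk, reported to be needed for the mt-Nd6 message, was at 0.00 and 0.10. Any part of these genes in the mitochondrial levels was not tested.

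**Figure D5:**
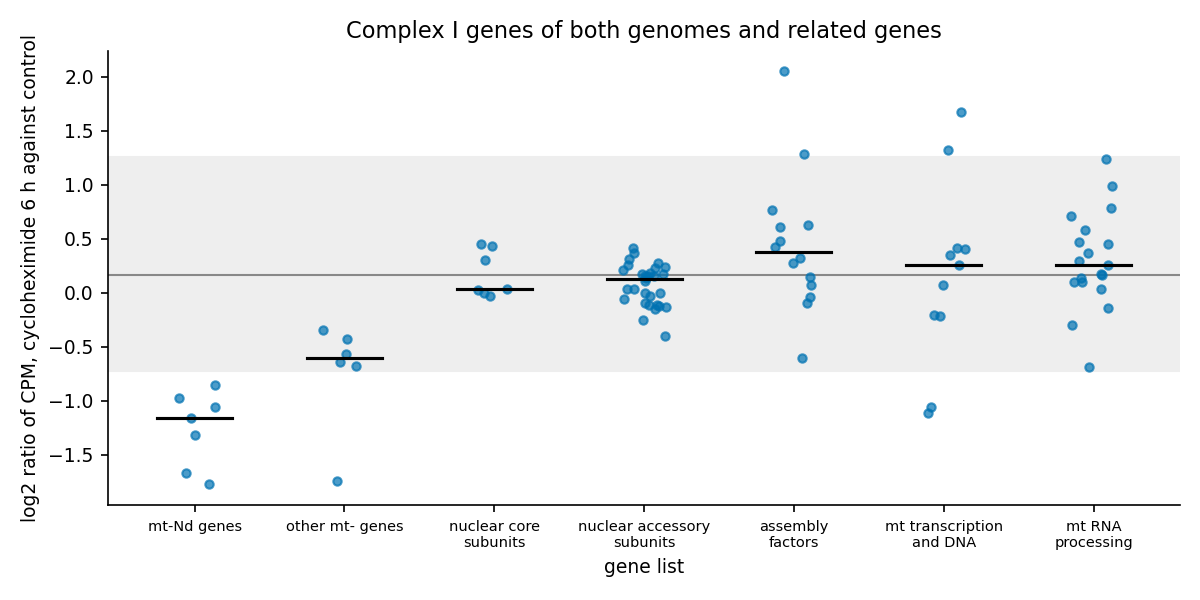
Log2 ratio of CPM after 6 h against the control for each gene of at least 10 CPM in 7 lists, with the list median as a black bar, the median of all 7608 genes (0.17) as a grey line and their central 90% (-0.73 to 1.26) as a grey band. Points are genes in 1 library a group, and sideways position carries no value. The 7 mitochondrially encoded complex I genes lie between -1.78 and -0.86, below all 37 nuclear-encoded subunits, which lie between -0.40 and 0.45.

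Among 5556 nuclear genes averaging 20 CPM or more, the 5 whose log2 ratios after 3 h and 6 h were nearest to those of the summed complex I genes were Tsc22d4, Mapk6, Slc6a6, Cacna1a and Tubb4b. Their distances in log2 units over the 3 libraries were 0.0439, 0.0457, 0.0464, 0.0478 and 0.0621. Tubb4b, a beta-tubulin and the most abundant of them, was at 707 CPM in the control, 423 CPM after 3 h and 317 CPM after 6 h. Across the 2187 control cells, the nuclear genes with the highest Spearman's rho with the summed complex I genes were Rpl12 (0.247), Rps12 (0.236), Rpl23a (0.203), Wnk1 (0.192) and Pcbp2 (0.190). The first 3 code for ribosomal proteins. The central 90% of nuclear genes had a rho of -0.102 to 0.0887, and these correlations share a library and a fixed total of UMIs.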

How the data were processed

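Single-cell 3′ RNA libraries (10x Genomics 3′ v3) of 3 samples, 1 per condition, were used. The authors deposited raw counts of UMIs for every gene in every barcode. Cell Ranger 4 made them, per the file headers (4.0.0, with genome build mm10, per the submitters' processing notes). The annotation release and the strand and overlap settings are not given in the sources used here. Each table listed 6794880 barcodes with 127601369, 115188502 and 150987519 UMIs in the control, 3 h and 6 h libraries, of which kept barcodes held 87.3, 92.8 and 92.9%.

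UMI counts of kept barcodes were summed per library and expressed as CPM. Log2 ratios used a prior of 0.5 counts. Intervals are exact Poisson (CPM), conditional binomial (ratios) and Clopper-Pearson (shares), at 95%. Shares of cells, coefficients of variation and correlations used barcodes thinned to 15000 UMIs without replacement. With 1 library a group no test was made, and counts of members or listed genes past 1.5-fold are given beside the share of all genes of at least 10 CPM past it. No doublets were removed. The rule for the 7 genes uses symbols alone, but this gene family, the lists and the naming rules were chosen with earlier results of these data known. Named were the members, the other mitochondrial genes, the 2 highest and 2 lowest genes of each list at 6 h, 5 nearest genes by ratio and 5 by correlation, and listed genes of mitochondrial RNA metabolism. Ndufb1 and Coa1 had no row under those symbols. Alternatives changed the scaling, the barcode limits, the prior, the expression minimum, the fold, the thinning depth, free RNA and barcodes of high UMI count. Scripts were tested on simulated data. Python 3.11.15, numpy 2.4.6, scipy 1.17.1, pandas 2.3.3, matplotlib 3.10.9 and edgeR 4.0.16 (TMM factors only) were used. Sequences and coordinates are those of GENCODE M21 on GRCm38.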

Additional observations from a re-analysis of the deposited data

Results flagged for a closer look

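Rpl12 and Rps12, ribosomal protein genes named for their correlation with the complex I genes across control cells, lay on opposite sides of the control at the 2 times. The log2 ratio of Rpl12 was 0.036 after 3 h and -0.0079 after 6 h, a difference of -0.0438. For Rps12 it was 0.037 after 3 h and -0.032 after 6 h, a difference of -0.0692. Both rest on 1 library a group, and the difference was not tested.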

How the results depend on the processing

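No paired analysis was possible because each condition has 1 library. Below, 3 values stand for 3 h against control, 6 h against control and 6 h against 3 h, or, for levels, for the control, 3 h and 6 h. All 231 alternative ratios of single complex I genes stayed negative. With TMM factors the summed log2 ratio was -0.88, -1.40 and -0.52, the median of the 7 genes -1.04, -1.45 and -0.57, and that of the other mitochondrial genes -0.54, -0.89 and -0.33. The nuclear subunits' median became -0.17, -0.18 and -0.027, with a change of sign in all 3 (the first from 0.0023), and 7 complex I genes were past 1.5-fold after 3 h (background 5.23%) and 2 after 6 h against 3 h (4.22%). By UMIs per barcode the sum was -0.43, -1.0 and -0.57, the median -0.59, -1.05 and -0.62, the other mitochondrial genes -0.094, -0.50 and -0.38, and the nuclear subunits 0.27, 0.22 and -0.076, the last with a change of sign. There 5 genes passed 1.5-fold after 6 h against 3 h (background 5.28%), and mt-Co2 and mt-Co3 changed sign after 3 h (0.10 and 0.10). The cause was not tested. Scaled to non-mitochondrial UMIs the sum was -0.72, -1.13 and -0.42, the median -0.88 and -1.19 against the control, and the other mitochondrial genes -0.38 and -0.63. Without mitochondrial limits the control sum was 9544 CPM with an excess squared coefficient of variation of 0.119, above that after 3 h (0.101). The sum was then -0.62 and -1.03 against the control, the median -0.79 and -1.09, the other mitochondrial genes -0.29 and -0.53, and the nuclear subunits -0.025 and 0.076. Without barcodes above 2 times the median UMIs the sum was -0.68 and -1.09 (6285 and 4734 CPM), the median -0.84 and -1.11, the other mitochondrial genes -0.60 after 6 h, and mt-Nd6 per 1000 was 4.69, 3.4 and 3.01. With 10% free RNA subtracted the sums were 10391, 6345 and 4832 CPM (log2 ratio -0.71 after 3 h and -0.39 after 6 h against 3 h). The median was -0.87 after 3 h and -0.45 after 6 h against 3 h, the other mitochondrial genes -0.37 and -0.60 against the control, and mt-Nd6 per 1000 was 4.20, 2.77 and 2.5. A minimum of 10000 UMIs gave sums of 10090, 6210 and 4682 CPM, and one of 20000 gave 6172 and 4651 CPM after 3 h and 6 h. At a 2-fold limit 2, 5 and 0 genes passed (background 0.513, 2.41 and 0.657%). mt-Nd6 was detected in 78.0, 56.2 and 45.3% of barcodes without thinning and in 64.3, 37.4 and 28.5% with thinning to a greater depth. At that depth the excess squared coefficient of variation of the 7 genes summed was 0.0825, 0.0891 and 0.0978. A 50 CPM minimum leaves out mt-Nd6. Depth limits mt-Nd6 most, at 0.200 to 0.701 UMIs a thinned barcode, and also the detected share of mt-Nd4l (89.8% thinned and 99.2% unthinned after 6 h).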

Other observations

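Over the 12 heavy-strand protein genes, the log2 ratio against the control rose with the gene's mean level. Spearman's rho was 0.88 at 3 h and at 6 h, so genes of lower level tended to be the more reduced. Within the complex I genes this order had exceptions. mt-Nd1, the highest of them in the control at 3133 CPM, was at -1.32 after 6 h. mt-Nd3, at 595 CPM in the control, was at -0.97 after 6 h. With the gene's position along the heavy strand rho was -0.03 at 3 h and 0.01 at 6 h, with its length 0.13 and 0.23, and with its share of A -0.44 and -0.45. These are descriptions over 12 genes of the same 3 libraries, the level includes the libraries compared, and both times share the control. mt-Nd6, on the light strand, was not among the 12, and was both the lowest of the complex I genes and the most reduced at 6 h.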
